A study of Caenorhabditis elegans with 9 samples.

Results

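Astacins are secreted zinc metalloproteases, and the nematode Caenorhabditis elegans carries a large family of them, most named nas with a number. This account covers 33 astacin genes of the 46699 genes in the deposited tables: every gene named nas with a number except nas-38, nas-9, nas-10, nas-11 and nas-33, together with hch-1. The studied mutation lies in nas-38, and the other 4 omitted genes are those whose transcripts rose with the ok3407 allele. The astacin genes dpy-31 and toh-1, which carry other names, are also outside the set. The 33 genes are therefore partly defined by not having passed the test of ok3407 against wild type, and their counts in that comparison are given as a description.

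RNA was sequenced from whole sleeping larvae, picked by hand at L4 lethargus, which precedes the final molt. The 9 libraries comprised 3 replicates of each genotype: wild type (strain N2), nas-38(tm2655) (strain HBR1114) and nas-38(ok3407) (strain HBR1010), all grown on E. coli OP50. The deposited tables call tm2655 a loss and ok3407 a gain of function, and 1 strain stands for each allele. Because whole animals were used, fewer cells of a type and less RNA per cell cannot be told apart.

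An astacin is made with a propeptide that blocks its active site, and removal of that propeptide frees the protease. In C. elegans astacins act on extracellular material: they open the eggshell, shed the old cuticle at each molt, trim procollagens for the new cuticle and shape the cuticle lining of the pharynx. The family is divided by domain architecture into 6 subgroups. Subgroup I (nas-1 to nas-5) has little beyond the catalytic domain, and subgroup II (nas-6 to nas-15) ends in toxin-like cysteine-rich domains. Members of subgroup III (nas-16 to nas-30) carry EGF and CUB domains, modules that bind other proteins outside the cell. Subgroup V, which includes hch-1, nas-36, nas-37 and nas-38, adds a thrombospondin repeat. Subgroup VI is nas-39, built like the tolloid and BMP1 proteases that process growth factor inhibitors and procollagen in other animals. The genes studied here numbered 5 in subgroup I, 7 in II, 14 in III, 2 in IV, 3 in V and 1 in VI, and nas-40 is annotated as a pseudogene.

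Depth was 13759541 to 40523994 gene reads per library. Levels of a gene across libraries are CPM, counts per 1000000 gene reads after TMM scaling. Levels of different genes are set against each other in RPKM, the authors' reads per kilobase of exon per 1000000 mapped reads. The targeted gene nas-38 stood at 57.9 to 134 CPM in wild type, 7.56 to 14.4 in tm2655 and 227 to 375 in ok3407. Markers of pharynx, intestine, epidermis, body wall muscle and sperm were present in every library (summed level of each list at least 382 CPM). Replicate 1 of tm2655 stood apart on the third principal component of all tested genes, at -66.1 against -5.32 to 20.1 in the other libraries. Wild type replicate 1, the library of lowest depth, lay at 54.7 on the second component, against -38.6 to 29.6 in the others.

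The sleeping larvae transcribed most of the family. Of the 33 genes, 9 had a mean level of 10 RPKM or more over the 9 libraries, 13 lay between 1 and 10 RPKM and 11 lay under 1 RPKM. Reads were found in every library for 24 genes. The low-count filter kept 25 genes for testing, and the other 8 genes were nas-2, nas-3, nas-16, nas-17, nas-18, nas-19, nas-40 and hch-1. The summed level of all 33 genes was 432 ± 25.5 CPM (SD, n = 3) in wild type, 397 ± 110 in tm2655 and 408 ± 69.6 in ok3407, and the 3 groups overlapped.

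Among the 33 genes, the 8 with the highest mean RPKM were nas-30, nas-7, nas-20, nas-27, nas-1, nas-8, nas-36 and nas-22. Outside the set, toh-1 had a higher mean over the 9 libraries, 93.5 RPKM against 40.3 for nas-30, and dpy-31 had 18.8. In wild type nas-30 (chromosome I, 942257 to 947543, coding length 2058 bases), a member of subgroup III, had 45.1 ± 8.93 RPKM (SD, n = 3). The subgroup II gene nas-7 (chromosome II, 7400725 to 7402707) had 39.1 ± 7.36 RPKM there. The ranges of this pair overlapped, at 39.3 to 55.3 RPKM for nas-30 and 32.1 to 46.8 for nas-7. Wild type levels were 30.8 ± 13.2 RPKM for nas-27, 26.5 ± 4.69 for nas-1, 23.6 ± 9.22 for nas-20, 19.1 ± 6.43 for nas-8, 15.1 ± 5.66 for nas-36 and 12.5 ± 3.25 for nas-22. Each neighbour in this order differed from the next by less than the larger of the SDs of the pair, so the order of neighbours is not resolved by 3 libraries. Genes farther apart in it could separate, as nas-30 did from nas-1, whose wild type range was 22.1 to 31.4 RPKM. The high end of the list drew on subgroups I, II, III and V, while the subgroup IV and VI genes lay lower, at 0.98 to 3.81 RPKM over the 9 libraries.

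**Figure D1:**
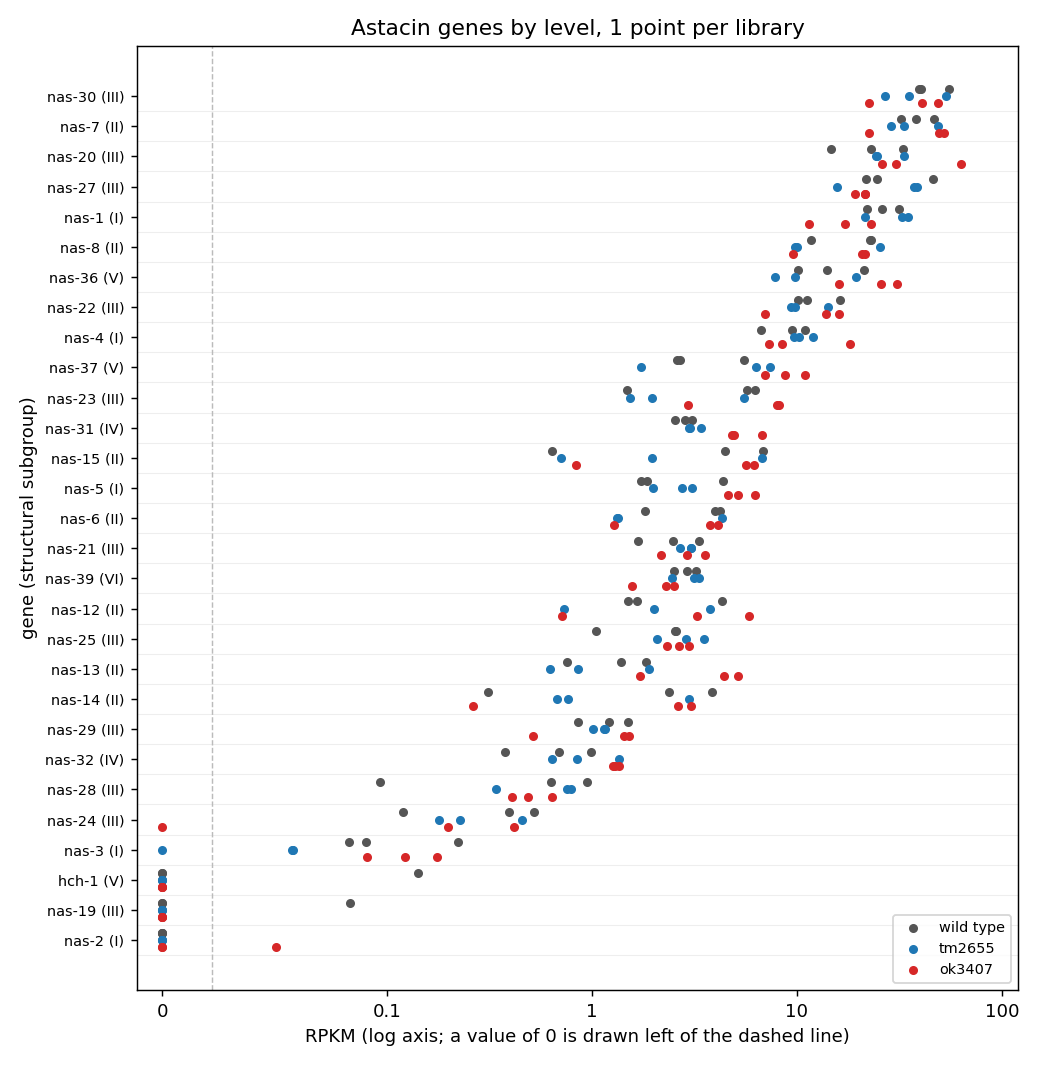
Level in RPKM (log axis, 1 point per library) of the 29 astacin genes of the set with at least 1 read, ordered by mean level. nas-30 and nas-7 lead, hch-1, nas-19 and nas-2 have reads in 1 library each, and the 3 groups interleave for most genes.

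In subgroup I, nas-1 and nas-4 were the abundant genes and nas-2 and nas-3 were nearly silent. nas-1 (chromosome III, 13406550 to 13409175) stood at 28.4, 31.1 and 24.5 CPM in the wild type libraries, 20.7, 33.8 and 36.6 in tm2655 and 20.9, 11.8 and 16.5 in ok3407. All 3 ok3407 libraries lay below all 3 wild type libraries, and they overlapped with tm2655 through its replicate 1. nas-5 (chromosome I, 9886200 to 9888154), named after its values were seen, had 2.29, 5.36 and 2.65 CPM in wild type, 3.67, 2.6 and 3.80 in tm2655 and 7.41, 5.38 and 5.07 in ok3407. The ok3407 values lay above those of tm2655 and overlapped with wild type. Over all libraries nas-3 had 21 reads and nas-2 had 1, which did not map uniquely.

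All 7 genes of subgroup II in the set passed the filter. nas-6 and nas-7 encode astacins of the pharynx, where nas-6 is needed to form the grinder, the cuticle plates that crush bacteria. nas-7 stood at 54.2, 62 and 47.2 CPM in wild type, 36.8, 65.3 and 46.6 in tm2655 and 28.2, 59.5 and 63.2 in ok3407. nas-6 (chromosome IV, 17486982 to 17490497) was much rarer, with 5.61, 4.95 and 2.37 CPM in wild type, 1.71, 5.47 and 1.64 in tm2655 and 1.49, 4.65 and 4.05 in ok3407. For both genes the 3 groups overlapped, with replicate 1 of ok3407 the lowest of its group.

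nas-8 (chromosome IV, 7115650 to 7119788) had 32.9, 30.5 and 18.2 CPM in wild type, 12.9, 34.9 and 14.6 in tm2655 and 12.1, 24.5 and 26.7 in ok3407. nas-13 (chromosome X, 15425274 to 15428090) had 2.85, 2.01 and 1.26 CPM in wild type, 0.91, 2.80 and 1.4 in tm2655 and 2.31, 6.85 and 5.95 in ok3407. For nas-13, replicates 2 and 3 of ok3407 lay above every other library and replicate 1 lay within the range of the other groups. nas-14 (chromosome IV, 13170584 to 13173694) had 6.64, 4.03 and 0.56 CPM in wild type, 1.08, 5.21 and 1.37 in tm2655 and 0.39, 4.97 and 4.16 in ok3407. nas-15 (chromosome X, 777734 to 780235), named after its values were seen, had 13.7, 8.50 and 1.58 CPM in wild type, 1.54, 13.8 and 3.86 in tm2655 and 1.81, 9.79 and 11.5 in ok3407. In nas-14 and nas-15 the replicates of 1 group lay farther apart than the group means did: the highest wild type library exceeded the lowest 11.9-fold for nas-14 and 8.65-fold for nas-15. nas-12 had group means of 2.78 to 3.71 CPM.

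Among the genes of the set, subgroup III spanned the whole range, from nas-30 at the top to genes without a single read. nas-30 stood at 138, 90.8 and 100 CPM in wild type, 60.6, 127 and 84.9 in tm2655 and 48.8, 87.0 and 104 in ok3407, with overlap between all groups. nas-27 (chromosome II, 1176072 to 1179138) had 33.6, 34.5 and 73.2 CPM in wild type, 22, 56.5 and 56.3 in tm2655 and 30.3, 28.6 and 25.4 in ok3407. Its ok3407 libraries lay below those of wild type but within the range of tm2655. nas-23 (chromosome II, 7491471 to 7493643) had 10.5, 10.6 and 2.93 CPM in wild type, 3.36, 9.82 and 2.80 in tm2655 and 4.82, 12.8 and 12.6 in ok3407. The rare gene nas-24 (chromosome V, 13769669 to 13771279) had 0.71, 0.15 and 0.56 CPM in wild type, 0.28, 0.63 and 0.27 in tm2655 and 0, 0.50 and 0.23 in ok3407. Neither gene separated the groups. nas-25, nas-28 and nas-29 had group means between 0.754 and 3.86 CPM.

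Of the 14 genes of subgroup III, 7 lie in 2 runs on chromosome V that differed in activity. nas-16, nas-18, nas-17 and nas-19 lie within 10.8 kb (11391932 to 11402689), and the 4 genes together had 2 reads in all 9 libraries, both from nas-19 in wild type replicate 3. nas-20, nas-21 and nas-22 lie within 6.89 kb (11470966 to 11477858), 68.3 kb further on, and had 15751 reads. A count of 0 allows up to 3 reads, 0.0678 to 0.237 CPM depending on the library, so a transcript present in few cells could have been missed. Within the transcribed run nas-20 and nas-21 lie head to head, with 277 bases between their coding starts. nas-20 was the more abundant of that pair in every library, with an RPKM ratio of 5.87 to 29.2.

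nas-20 stood at 20.4, 41.3 and 33.8 CPM in wild type, 41.5, 32.3 and 32.6 in tm2655 and 76.8, 34.8 and 30.4 in ok3407. Its highest value, in ok3407 replicate 1, was the highest of all 9 libraries, while the other ok3407 libraries matched the other groups. nas-22 had 17.5, 20.8 and 15.8 CPM in wild type, 12.7, 19.2 and 14.3 in tm2655 and 8.48, 19.7 and 17.4 in ok3407, and its lowest value came from that same ok3407 library. An annotated gene on the same strand, T11F9.7, overlaps nas-22 over 995 bases and had 66 reads against 4306 for nas-22. nas-21 had group means of 4.53 to 5.01 CPM, and 29.4% of its reads lay in introns. The median share of intron reads over the 25 tested astacins was 5.47%, and the next highest was 17.4% (nas-4).

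**Figure D2:**
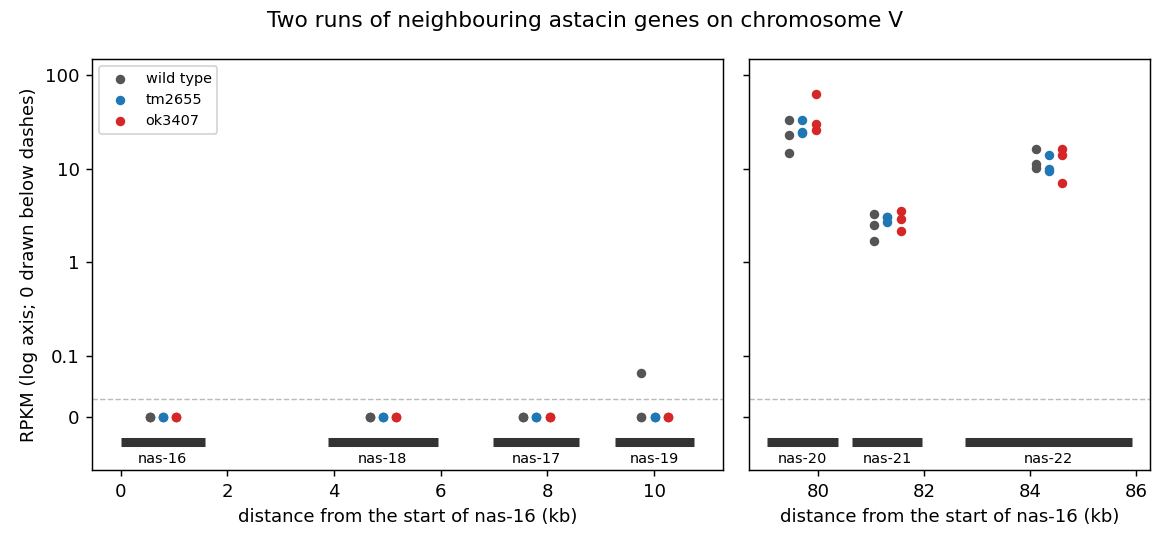
RPKM (log axis, 1 point per library) of the 7 neighbouring subgroup III genes on chromosome V against the distance from the start of nas-16 in kb, with bars for the coding extent of each gene. The run nas-16 to nas-19 is at 0 except for nas-19 in 1 wild type library, and nas-20 lies above nas-22 and nas-22 above nas-21 in every library.

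Subgroup IV holds nas-31 and nas-32. nas-31 (chromosome V, 10918942 to 10921756), named after its values were seen, had 6.56, 5.33 and 7.72 CPM in wild type, 6.99, 6.52 and 6.53 in tm2655 and 10.2, 13.3 and 9.32 in ok3407. Every ok3407 library lay above every library of the other groups, and wild type and tm2655 overlapped. nas-32 stood at 1.51 ± 0.669 CPM in wild type, 2.02 ± 0.67 in tm2655 and 2.54 ± 0.0221 in ok3407 (SD, n = 3).

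In subgroup V, nas-36 and nas-37 are the astacins of ecdysis: larvae that lack either fail to shed the old cuticle cleanly, and nas-37 protein is made in the epidermis. nas-36 (chromosome I, 7527307 to 7531388) had 29.9, 41.0 and 22.4 CPM in wild type, 15.1, 39.8 and 20.6 in tm2655 and 30.6, 55.4 and 46.7 in ok3407. nas-37 (chromosome X, 9945084 to 9949059) had 14.5, 6.22 and 7.44 CPM in wild type, 17.9, 16.1 and 4.65 in tm2655 and 16, 19.4 and 24.4 in ok3407. For nas-37 the ok3407 libraries lay above wild type and overlapped with tm2655, whereas for nas-36 all groups overlapped. By length, nas-36 was the more abundant of the pair in wild type, at 15.1 ± 5.66 against 3.61 ± 1.68 RPKM (SD, n = 3). hch-1 (chromosome X, 14696519 to 14699965), whose protein digests the eggshell at hatching and is needed for neuroblast migration in the young larva, had 9 reads in wild type replicate 2 and 0 in the other 8 libraries.

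The tolloid-like gene nas-39 (chromosome X, 16457459 to 16471150), the only member of subgroup VI, had 9.41, 10.1 and 10.8 CPM in wild type, 8.29, 10.4 and 11.9 in tm2655 and 5.29, 7.17 and 7.46 in ok3407. All ok3407 libraries lay below all libraries of the other groups. The pseudogene nas-40 had no reads.

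**Figure D3:**
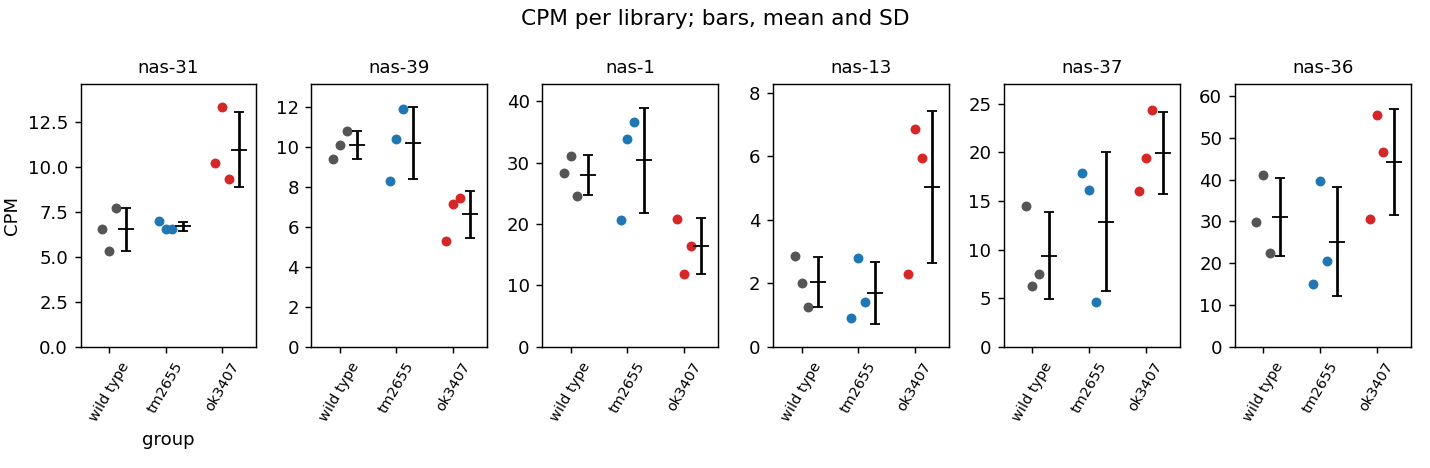
CPM of 6 astacin genes in each library, with the mean and SD of each group (n = 3) drawn beside the points. The 6 genes were picked with their values known, and nas-5, whose ok3407 libraries lay above those of tm2655, is not drawn. nas-31 is higher and nas-39 lower in all ok3407 libraries than in the other 6, while nas-13, nas-37 and nas-36 have wide groups.

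Setting ok3407 beside wild type asked which astacins go with the allele called a gain of function. None of the 25 tested genes passed (edgeR quasi-likelihood test, Benjamini-Hochberg adjusted p under 0.05), against 6.23% of all 16055 tested genes (3.33% higher and 2.91% lower). Because genes that passed were left out of the set, nothing is read from that count. At an unadjusted p under 0.05 there were 4 of 25 astacins, against 23.6% of all tested genes. The DESeq2 Wald test called 3 of 25, with nas-31 higher and nas-1 and nas-39 lower, against 12.7% of all tested genes by the same test. The authors' deposited table of 925 genes for this comparison lists none of the 33.

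The difference closest to the threshold was that of nas-31, at 0.74 ± 0.21 on the log2 scale (approximate standard error, 95% interval 0.26 to 1.22, edgeR adjusted p = 0.0737, range over alternatives 0.0211 to 0.241). nas-1 differed by -0.77 ± 0.26 (-1.34 to -0.20, edgeR adjusted p = 0.107) and nas-39 by -0.61 ± 0.21 (-1.08 to -0.14, 0.12). nas-13 had the largest difference, 1.32 ± 0.53, with an interval of 0.14 to 2.5 (edgeR adjusted p = 0.169). The ecdysis genes had 1.10 ± 0.50 for nas-37 (-0.03 to 2.22, edgeR adjusted p = 0.22) and 0.51 ± 0.38 for nas-36 (-0.35 to 1.37, 0.459). nas-24 had -0.84 ± 0.97, with an interval from -3.0 to 1.33, so its change is hardly bounded.

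Over the 25 genes the median log2 difference was -0.02, against 0.03 over all tested genes, with 12 above and 13 below 0. Groups did not overlap for 3 higher genes (nas-31, nas-32 and nas-37) and 3 lower genes (nas-1, nas-27 and nas-39), against 14.4% higher and 14.5% lower of all tested genes. The intervals of 20 genes stayed within a 4-fold difference in either direction and those of 5 within a 2-fold difference. Under total library size the median of all genes shifted up by 0.213, and the differences of nas-7 and nas-15 turned from -0.11 and -0.02 to 0.09 and 0.18. In the same comparison some genes of other lists passed. Of 22 molting genes, 5 rose (mlt-3, noah-1, fbn-1, lrp-1 and nekl-2), 0 fell and 17 did not pass, with a median of 0.46. Of 5 genes of the adult stage, col-19 and col-62 fell and 3 did not pass, with summed levels of 6560 to 13800 CPM in wild type and 3460 to 9940 in ok3407. Of 5 body wall muscle markers 3 fell, with summed levels of 11300 to 14000 CPM in wild type and 7600 to 8750 in ok3407, and of 8 intestine markers act-5 fell, with 5650 to 8850 and 3750 to 4200 CPM. Of 7 epidermis markers elt-3 fell, of the 9 BMP pathway genes sma-3 rose, and none of 6 procollagen processing genes, 12 pharynx markers or 7 tested sperm markers passed. The part of stage and tissue content in the astacin differences was not tested.

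The second comparison, tm2655 against wild type, asked which astacins go with the allele called a loss of function. None of the 25 tested genes passed with edgeR, against 0.00623% of all tested genes, a single gene. The targeted gene nas-38 did not pass either, at -3.0 on the log2 scale (95% interval -3.9 to -2.11, edgeR adjusted p = 0.316). A test that missed this drop could miss smaller ones, so little is read from the count of 0. At an unadjusted p under 0.05 there were 0 of 25, against 2.47% of all tested genes, and DESeq2 also called 0 of 25, against 0.0249% of all tested genes. No gene had groups that did not overlap, against 3.85% higher and 2.62% lower of all tested genes. The authors' deposited table for this comparison lists 7 genes, with nas-38 among them and none of the 33.

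Differences from wild type lay between -0.59 and 0.47 on the log2 scale, with a median of -0.14 and 15 of 25 below 0. Over all tested genes the median was 0.01, with 52.4% above 0. The astacins are not independent of each other, so nothing is read from the count below 0. The largest difference was that of nas-23, at -0.59 ± 0.64 (95% interval -2.04 to 0.87, edgeR adjusted p = 0.998), followed by nas-6 (-0.54, -1.86 to 0.77) and nas-14 (-0.53, -2.95 to 1.89). nas-39 had 0.01 (-0.46 to 0.47) and nas-31 had 0.03 (-0.44 to 0.51). The intervals of 10 genes stayed within a 2-fold difference, among them nas-1, nas-7, nas-22, nas-31 and nas-39, and those of 21 within a 4-fold difference. Of the 22 molting genes, the 6 procollagen processing genes and the 9 genes of the BMP pathway, in which tolloid proteases act in other animals, 0 passed in this comparison.

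The third comparison set the alleles against each other. It shares the ok3407 libraries with the first comparison and the tm2655 libraries with the second, so its values are not independent of theirs. None of the 25 tested genes passed with edgeR, against 4.02% of all tested genes (2.33% higher and 1.69% lower). The omitted genes nas-38, nas-10, nas-11 and nas-33 passed here as well, so the choice of genes shapes this count too and nothing is read from it. The DESeq2 test called 3 of 25, with nas-31 and nas-13 higher and nas-1 lower in ok3407, against 9.16% of all tested genes by the same test. At an unadjusted p under 0.05 there were 5 of 25 (nas-1, nas-5, nas-13, nas-31 and nas-39), against 17.6% of all tested genes.

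nas-1 was closest to the threshold, at -0.89 ± 0.25 (95% interval -1.46 to -0.32, edgeR adjusted p = 0.0895). Without replicate 1 of tm2655 nas-1 fell by 1.10 (edgeR adjusted p = 0.0364), and it did not pass when any other library was left out. nas-31 had 0.71 ± 0.21 (0.23 to 1.18, edgeR adjusted p = 0.101), nas-13 had 1.56 ± 0.53 (0.39 to 2.74, 0.145) and nas-39 had -0.62 ± 0.21 (-1.08 to -0.15, 0.148). nas-23 had 0.92 ± 0.64, and its interval ran from -0.53 to 2.37. The groups did not overlap for nas-5 and nas-31, both higher, and nas-39, lower, against 11.2% higher and 12.3% lower of all tested genes. The median difference was 0.02, against 0.01 over all tested genes. Of the 22 molting genes mlt-3, nekl-2 and cpl-1 rose, 0 fell and 19 did not pass. Of 5 genes of the adult stage col-19 and col-62 fell, of 8 intestine markers act-5 fell, and of 7 epidermis markers elt-3 fell. None of the body wall muscle, pharynx or tested sperm markers passed, nor did any procollagen processing or BMP pathway gene. The part of stage and tissue content was not tested here either.

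**Figure D4:**
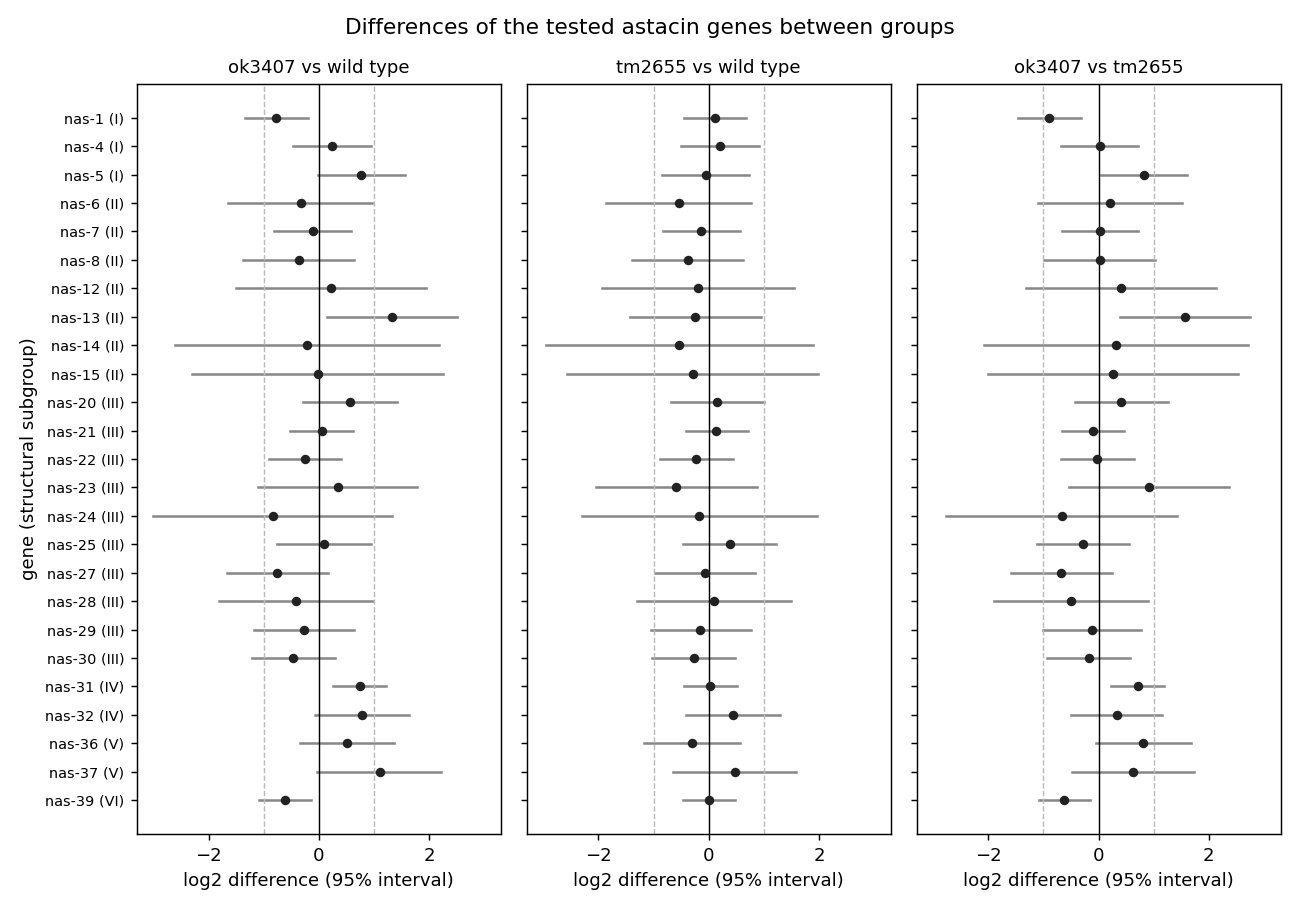
Log2 differences (points) with 95% intervals (bars) of the 25 tested astacins in the 3 comparisons, in the order of the subgroups, with dashed lines at a 2-fold difference. No gene passed the adjusted threshold, and the intervals of nas-14, nas-15 and nas-24 are the widest.

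The spread between replicates of 1 genotype varied among the astacins. The within-group SD of log2(CPM + 0.5) was 0.48 in the median astacin and 0.27 in the median tested gene, and 22 of 25 astacins lay above the latter. The astacins and the other genes were not matched for level, and rare genes carry more counting error, so no trait of the family is read from this. nas-15 (1.39) and nas-14 (1.31) varied most, and 0.523% and 0.723% of all tested genes varied more. nas-12 (0.96), nas-23 (0.88), nas-6 (0.73) and nas-37 (0.71) followed. nas-31 and nas-39, both at 0.21, varied least.

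The variation ran partly in parallel across genes. In ok3407 replicate 1 was the lowest library of its group for 19 of 25 astacins, against 34.6% of all tested genes. Within tm2655, replicate 1 was the lowest for 16 of 25 (all tested genes, 38.1%) and replicate 2 the highest for 13 (32%). In wild type, replicate 3 was the lowest for 13 (30.7%). The combination of lowest in wild type replicate 3, lowest in ok3407 replicate 1 and highest in tm2655 replicate 2 was chosen after the values were seen. It held for 9 of 25 astacins (36%), nas-6, nas-7, nas-8, nas-13, nas-14, nas-15, nas-22, nas-23 and nas-36, and for 7.24% of all tested genes. By subgroup, 6 of the 7 subgroup II genes of the set had it, 2 of 10 in subgroup III and 1 of 2 in subgroup V. None of the 6 tested genes of subgroups I, IV and VI had it. Of 7 astacins outside the set (nas-38, nas-9, nas-10, nas-11, nas-33, dpy-31 and toh-1) only toh-1 had it. The omitted subgroup II genes nas-9, nas-10 and nas-11 thus lacked the pattern. Genes of 1 animal population vary together, so these counts are not of independent genes and carry no test.

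Some cuticle and molting genes shared these 3 extremes, and mlt-10 and rol-6 are given as examples picked for that after their values were seen. mlt-10, a molting gene, stood at 107, 13.1 and 1.16 CPM in wild type, 9.48, 64.3 and 3.62 in tm2655 and 13.7, 24.5 and 26.3 in ok3407, a 92-fold range within wild type. The collagen gene rol-6 had 88.1, 26.2 and 4.28 CPM in wild type, 14.2, 51.8 and 10.2 in tm2655 and 8.73, 30.2 and 47.6 in ok3407. Within tm2655 both were lowest in replicate 3, whereas nas-14 and nas-15 were lowest in replicate 1. The pattern held for 7 of 22 molting genes (31.8%), 3 of 7 epidermis markers, 1 of 12 pharynx markers, 1 of 8 intestine markers and none of 5 body wall muscle markers. It also held for 1 of 6 procollagen processing genes (toh-1). Of 9 BMP pathway genes, 5 adult stage genes and 7 tested sperm markers, 0 had it. nas-37 was among the astacins that did not follow it: its lowest libraries were wild type replicate 2 and tm2655 replicate 3. In ok3407, 4 of 25 astacins went the other way, with replicate 1 the highest: nas-1, nas-5, nas-20 and nas-27. The part of molting stage in these library differences was not tested.

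**Figure D5:**
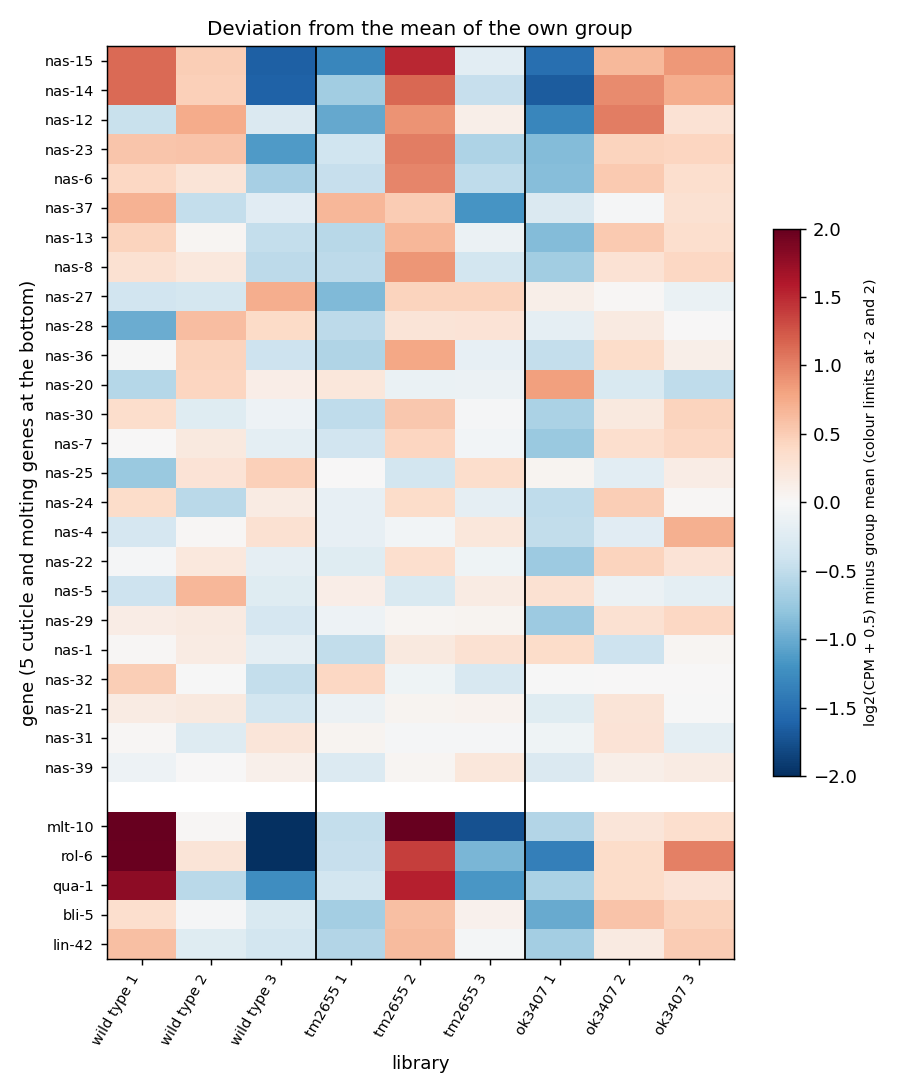
Deviation of each library from the mean of its own group in log2(CPM + 0.5), for the 25 tested astacins ordered by within-group SD and, below the gap, 5 cuticle and molting genes picked because they share the pattern, which 15 of 22 molting genes do not (red above, blue below the group mean). nas-15, nas-14, nas-23 and nas-6 are low in wild type replicate 3 and ok3407 replicate 1 and high in tm2655 replicate 2, as are rol-6 and mlt-10.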

How the data were processed

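Stranded mRNA libraries from whole larvae were read from both ends (NextSeq500), per the labels' protocols. The aligner, read counter, strand setting and genome build used by the submitters were not given in the sources used here. Raw counts per gene (total, uniquely mapped, exon and intron reads) and RPKM values were deposited by the authors, per the file headers. Their deposited lists of changed genes hold, per the file headers, an EDGE test's p-value and its signed fold change, a score. Deposited gene models hold coding exons, since 100% of 16074 lengths of genes with 1 transcript are multiples of 3. Coordinates are the deposited ones, and those of the 33 genes lay within 5000 bases of WBcel235, 2 of them identical.

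Total gene reads were filtered with filterByExpr and fitted with edgeR's quasi-likelihood test (TMM factors, robust, a term for each genotype) on all 9 libraries, and p-values were adjusted over all 16055 genes. Standard errors and 95% intervals are approximate, from the F statistic. Replicates are those the labels state. Without molecular identifiers, the limits given for counts of 0 include counting error alone. The genes, lists and tests were chosen with earlier results of these data known. Values in every library are given for the 8 genes of highest mean RPKM, 6 of known role and the 3 largest differences per comparison. nas-5, nas-15 and nas-31 were added after their values were seen, and the other genes appear with group means, ranges or differences. Alternatives were RLE factors, total library size, no filter, 5 CPM in 3 libraries, DESeq2, a replicate block, exon or unique reads, 6 libraries alone and each library left out. The script was tested on simulated data. Versions were R 4.3.3, edgeR 4.0.16, DESeq2 1.42.0, Python 3.11.15, pandas 2.3.3 and matplotlib 3.10.9.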

Additional observations from a re-analysis of the deposited data

How the results depend on the processing

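The count of called astacins was 0 in the 3 comparisons as reported. For ok3407 against wild type it was 1 with total library size (nas-31, 0.97, edgeR adjusted p = 0.0302) and 3 with DESeq2 (nas-31, adjusted p = 0.0211; nas-1, 0.0446; nas-39, 0.0477). For ok3407 against tm2655 it was 3 with DESeq2 (nas-1, 0.0216; nas-31, 0.0307; nas-13, 0.0414), and 0 to 1 when each library was left out, with the 1, nas-1, called without tm2655 replicate 1. For these results, the cause was not tested. Over all genes DESeq2 called 2033 against 1001 with edgeR in ok3407 against wild type and 1471 against 645 in ok3407 against tm2655. All other alternatives gave 0, including those that left out each library in the first 2 comparisons. Replicate numbers were not used to pair the libraries. Same-numbered libraries correlated at -0.245 to 0.399 in their deviations from group means, and differently numbered ones at -0.403 to 0.332. Of 9 libraries, 3 correlated best with their own number in both other groups, which does not settle whether the numbers mark pairs. A replicate block called 0 astacins in each comparison, as did the model without it. Of 1328 values of the 25 tested genes under alternatives, 1233 kept their direction and side of the threshold, 8 passed it in the same direction and 87 turned direction, 0 of those past the threshold. With total library size the turned values were 0.18 for nas-15 and 0.09 for nas-7 in ok3407 against wild type, and 0.08 for nas-21, 0.16 for nas-22, 0.06 for nas-29 and 0.0018 for nas-30 in ok3407 against tm2655. With the filter of 5 CPM in 3 libraries nas-15 turned to 0.01 in the former and nas-22 to 0.0065 in the latter, and with exon reads nas-22 turned to 0.0079 and nas-4 to -0.06 there. nas-4 was -0.07 there with the replicate block. nas-39 in tm2655 against wild type was -0.0022 with RLE factors, -0.0034 with DESeq2, -0.0035 with the replicate block and -5.3e-05 in the 6 libraries alone. Leaving out each library turned the direction of several genes. In ok3407 against wild type the ranges were -0.48 to 0.79 (nas-12), -0.73 to 0.45 (nas-14), -0.52 to 0.60 (nas-15), -0.14 to 0.17 (nas-21), -0.50 to 0.03 (nas-22), -0.06 to 0.67 (nas-23), -0.22 to 0.36 (nas-25), -0.85 to 0.06 (nas-28), -0.53 to 0.07 (nas-29), -0.24 to 0.46 (nas-4), -0.65 to 0.02 (nas-6) and -0.31 to 0.17 (nas-7). In tm2655 against wild type they were -0.04 to 0.33 (nas-1), -0.86 to 0.37 (nas-12), -0.80 to 0.06 (nas-13), -1.59 to 0.13 (nas-14), -1.54 to 0.33 (nas-15), -0.08 to 0.37 (nas-20), -0.03 to 0.25 (nas-21), -0.69 to 0.22 (nas-24), -0.27 to 0.40 (nas-27), -0.35 to 0.56 (nas-28), -0.11 to 0.17 (nas-31), -0.12 to 0.14 (nas-39), -0.26 to 0.42 (nas-5) and -0.39 to 0.04 (nas-7). In ok3407 against tm2655 they were -0.28 to 1.08 (nas-12), -0.17 to 1.38 (nas-14), -0.20 to 1.51 (nas-15), -0.12 to 0.65 (nas-20), -0.27 to 0.03 (nas-21), -0.27 to 0.26 (nas-22), -0.38 to 0.22 (nas-29), -0.42 to 0.14 (nas-30), -0.45 to 0.25 (nas-4), -0.10 to 1.02 (nas-6), -0.17 to 0.31 (nas-7) and -0.23 to 0.62 (nas-8). nas-24 rests on 88 reads over all libraries.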
